A study of Mus musculus with 6 samples.

Results

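The genes of fibroblast growth factor (FGF) signalling were compared between Gli1+ and Gli1- cells of mouse cartilage, as 10 genes chosen by name: the receptors *Fgfr1*, *Fgfr2*, *Fgfr3*, *Fgfr4* and *Fgfrl1*, the ligands *Fgf2* and *Fgf18*, and the feedback inhibitors *Spry1*, *Spry2* and *Spry4*. All 10 were found among the 54532 genes of the count table, and 10 of 10 passed the filter on low counts that left 14801 genes for testing. The cells came from *Gli1-CreERT2; tdTomato* mice on a c57BL/6 background, 1 month old and 24 h after tamoxifen (TAM), in which a recombinase made from the *Gli1* locus switches on the red reporter tdTomato. Both populations came from TAM-treated mice and were sorted as CD45-CD31-Ter119- cells. The Gli1+ cells were tdTomato+ (Tdtomato+ in the labels) and the Gli1- cells tdTomato- (Tdtomato-), with 3 libraries of each. Gli1- is thus any sorted cell without the reporter, including cells that expressed *Gli1* but did not recombine. The labels call the cells chondrogenic and the tissue growth plate, whereas the study describes digestion of costal cartilage.

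FGFs are secreted proteins that bind heparan sulfate and activate receptor tyrosine kinases, which signal through adaptors to RAS and the kinase ERK. FGFR1 to FGFR4 carry the kinase, and FGFRL1 is a related receptor that lacks it. ERK signalling induces its own inhibitors, among them the Sprouty proteins, and ETS transcription factors such as ETV4 and ETV5. In the growth plate, FGFR3 is the receptor of proliferating chondrocytes and restrains their growth, FGFR1 is known from hypertrophic chondrocytes and perichondrium, FGFR2 from perichondrium and bone-forming cells, and FGF18 is the ligand best known for acting on FGFR3.

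The libraries held 17114101 to 18602482 counts. Gli1+ replicate 1 stood apart with 15000 detected genes, against 20666 to 23360 in the others. *Gli1* was at 4.55 to 7.98 CPM (CPM are counts scaled to library size after TMM normalization) in Gli1+ and 0.724 to 2.43 CPM in Gli1- libraries. The RNA of *Gli1* thus went with the labels. Chondrocyte markers were abundant as a sum in every library, their 10 genes reaching 6160 to 25000 CPM. The highest sums were in replicate 2 of both populations, and 1 of the 10 genes was at 0 counts in Gli1+ replicate 1.

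*Fgfr1* was the most abundant FGF receptor and was lower in Gli1+ cells. It was at 520, 543 and 732 CPM in Gli1+ replicates 1, 2 and 3, and at 1888, 1011 and 1806 CPM in the Gli1- replicates. Every Gli1+ library lay below every Gli1- library, and the mean in Gli1- cells was 2.62 times that in Gli1+ cells. The log2 fold change (log2FC, Gli1+ over Gli1-) was -1.39 (standard error 0.49, unadjusted p = 0.0206, adjusted p = 0.9999 over all genes, edgeR's quasi-likelihood test). *Fgfr1* lies at chr8:25513654-25575718 on the plus strand (mm10), listed as ENSMUSG00000031565. Leaving out any single library moved its log2FC no further than -1.66 or -1.24.

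*Fgfr2* (ENSMUSG00000030849, chr7:130162451-133123350, minus strand) was also lower in Gli1+ cells of each replicate number, although the populations overlapped. It was at 65.3, 247 and 148 CPM in Gli1+ replicates 1, 2 and 3 and at 157, 421 and 403 CPM in the Gli1- replicates. Replicate 1 was the lowest in both populations, so that Gli1+ replicate 2 exceeded Gli1- replicate 1. The log2FC was -1.09 (standard error 0.61, unadjusted p = 0.112, edgeR's quasi-likelihood test) without and -1.16 (standard error 0.27, unadjusted p = 0.00657) with the replicate number as a block. *Fgfrl1*, the receptor without a kinase, was at 37.5, 110 and 67.0 CPM in Gli1+ and 109, 210 and 89.2 CPM in Gli1- replicates 1, 2 and 3, again lower in 3 of 3 pairs but overlapping. Its log2FC was -0.93 (standard error 0.54) without the block and -0.96 (standard error 0.31) with it, and the unblocked value was -0.50 without Gli1- replicate 2.

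*Fgfr3*, the receptor of proliferating chondrocytes, did not show this direction in every pair. It was at 18.99, 99.8 and 46.8 CPM in Gli1+ and 48.3, 90.1 and 67.4 CPM in Gli1- replicates 1, 2 and 3. The value in Gli1+ replicate 2 was the highest of all libraries, and that in Gli1+ replicate 1 the lowest. The log2FC was -0.31 with a standard error of 0.60, and without Gli1+ replicate 1 it was 0.077. *Fgfr4* was scarce, with 0 to 33 counts per library. It had 0 counts in Gli1+ replicate 1, which allows up to 0.159 CPM at the limit of 3 counts, and 1.03 to 2.19 CPM in the other libraries. Limits of this kind cover counting error only.

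**Figure D1:**
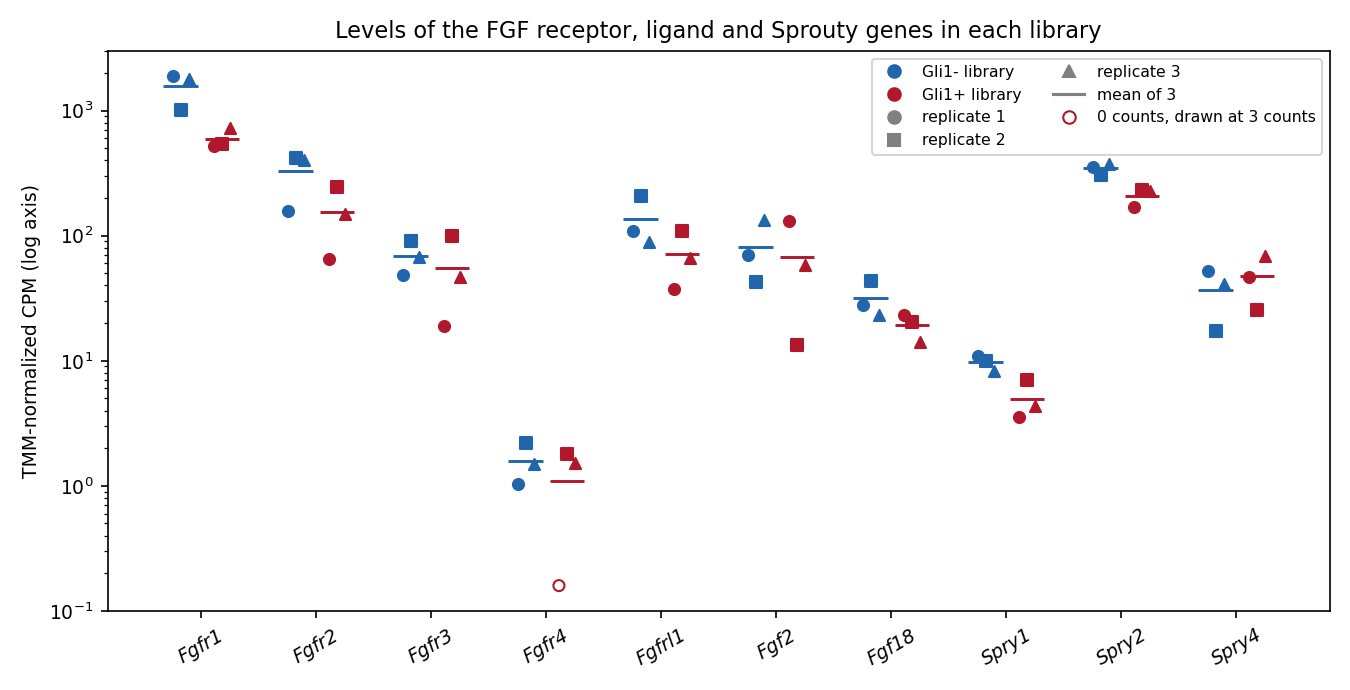
TMM-normalized CPM (log axis) of the 10 genes in the 3 Gli1- and 3 Gli1+ libraries, with marker shape giving the replicate number and lines the means. The Gli1+ points of *Fgfr1*, *Fgf18*, *Spry1* and *Spry2* all lie below the Gli1- points, while those of the other 6 genes overlap.

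Over the 10 genes, 9 had a negative log2FC, against 49.9% of all genes tested, and their median log2FC was -0.72, against 0.001 for all genes. edgeR called none of them (a call needs |log2FC| above 1 together with an adjusted p below 0.05), and over the whole table it called 0 of 14801 genes (0%). At an unadjusted p under 0.05, edgeR had 1 of the 10 genes (*Fgfr1*), lower, against 3.47% of all genes in either direction, 2.04% lower and 1.43% higher. In 4 of the 10 genes every Gli1+ library lay below every Gli1- library, against 4.45% of all genes, and in 0 it lay above, against 4.04%. Comparing libraries of equal replicate number, 6 of 10 genes were lower in Gli1+ cells in all 3 pairs, against 19.8% of all genes, and 0 were higher in all 3, against 17.6%. With single libraries omitted, 4 to 7 of the 10 genes were lower without overlap, and *Fgfr1*, *Fgf18*, *Spry1* and *Spry2* were among them each time. The background then was 6.90%, 14.9% and 8.51% of all genes without Gli1+ replicates 1, 2 and 3, and 7.61%, 8.15% and 7.92% without the Gli1- replicates. Since the genes belong to 1 pathway and were chosen with earlier results of these data known, these counts describe the genes and are not a test of the group.

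Adding replicate number to the model as a block lowered the standard error of 9 of the 10 genes, all but *Fgfr4*. With it, edgeR called 0 of the 10 genes (0% of all genes), while 4 of them, *Fgfr1*, *Fgfr2*, *Fgfrl1* and *Spry2*, had an unadjusted p under 0.05 in the lower direction, against 5.25% of all genes lower, 3.36% higher and 8.61% in either direction. DESeq2 with no block called 0 of the 10 genes (0.203% of all genes). With the block it called *Fgfr1* (log2FC -1.36, adjusted p = 0.00427, where the alternatives gave 2.83e-05 to 1.0) and *Fgfr2* (log2FC -1.17, adjusted p = 0.0144, against 0.000186 to 1.0), both lower, against 2.11% of all genes called lower and 2.89% in either direction. Without both libraries of replicate 1, an alternative chosen after seeing the data, DESeq2 with the block called *Fgfr1*, *Fgfr2* and *Fgf2* lower, against 3.27% of all genes. Without both libraries of replicate 2 (0.941%) or of replicate 3 (0.421%) it called none of the 10, with adjusted p-values for *Fgfr1* of 0.0778 and 0.279.

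**Figure D2:**
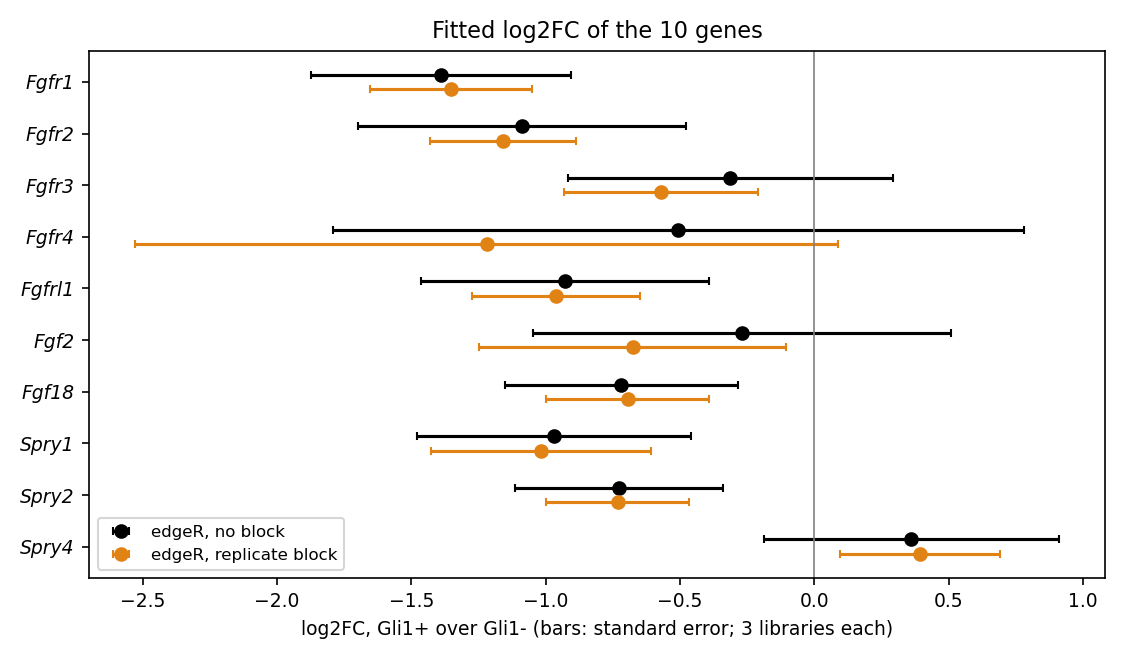
Fitted log2FC of Gli1+ over Gli1- cells for the 10 genes, from edgeR without (black) and with (orange) the replicate number as a block, with bars giving the standard error. All but *Spry4* lie to the left of 0 in both fits, and the bars of *Fgfr2* shrink from 0.61 to 0.27.

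Receptor levels were compared with each other per kilobase of gene length (CPM per kb), because longer genes collect more reads. In Gli1- cells the order was *Fgfr1* at 159 ± 49.0, *Fgfrl1* at 48.8 ± 23.3, *Fgfr2* at 31.6 ± 14.3, *Fgfr3* at 9.59 ± 2.92 and *Fgfr4* at 0.443 ± 0.164 CPM per kb (SD, n = 3). In Gli1+ cells it was the same, at 60.6 ± 11.8, 25.6 ± 13.0, 14.9 ± 8.82, 7.71 ± 5.74 and 0.311 ± 0.272 CPM per kb (SD, n = 3). In this order *Fgfr1* stood clear of its neighbour by more than the SDs in both populations, whereas *Fgfrl1* and *Fgfr2* did not differ beyond theirs, nor did *Fgfr2* and *Fgfr3* in Gli1+ cells. *Fgfr4* lay below *Fgfr3* in all 6 libraries. Counts per gene cannot tell apart the b and c splice forms of the receptors, which bind different ligands.

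The sum of the kinase receptors *Fgfr1* to *Fgfr4* was 61.6, 93.4 and 95.5 CPM per kb in Gli1+ replicates 1, 2 and 3 and 213, 156 and 232 CPM per kb in the Gli1- replicates. The populations did not overlap in this sum, whose mean in Gli1- cells was 2.40 times that in Gli1+ cells (p = 0.1 in a 2-sided exact permutation test, which with 3 libraries a side cannot go lower). Within each library *Fgfr1* made up most of the sum, with 58.9% to 85.4% in Gli1+ and 65.5% to 89.6% in Gli1- cells. Taken singly, *Fgfr1* was the only receptor of the sum without overlap, and *Fgfr2*, *Fgfr3* and *Fgfr4* each overlapped. *Fgfr2* gave 10.3% to 25.6% in Gli1+ cells and, as a mean, 16.7% ± 9.46 in Gli1- cells (SD, n = 3). The share of *Fgfr3* was 4.31% to 14.9% in Gli1+ and 3.16% to 8.05% in Gli1- cells. The lowest share of *Fgfr1* in each population was that of replicate 2, in which the chondrocyte markers were highest. Fewer cells of a type that expresses these receptors and less receptor RNA per cell cannot be told apart in such bulk libraries.

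**Figure D3:**
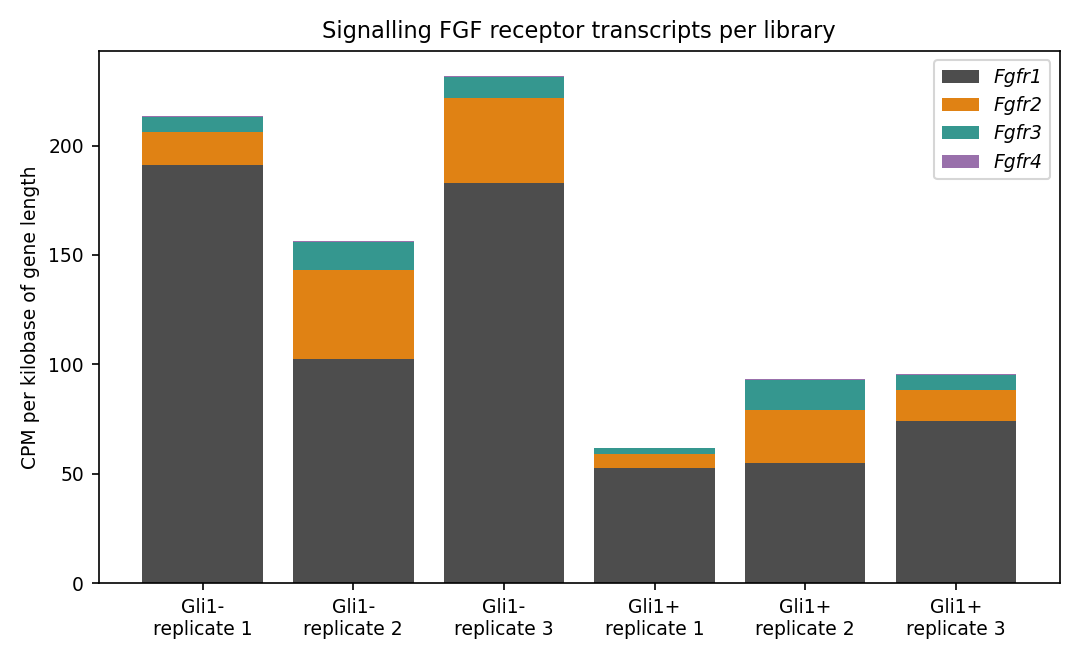
Stacked levels of *Fgfr1*, *Fgfr2*, *Fgfr3* and *Fgfr4* in CPM per kilobase in each of the 6 libraries. The Gli1+ bars reach 61.6 to 95.5 and the Gli1- bars 156 to 232, with *Fgfr1* the largest part of each.

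The balance between receptors was measured as the log2 ratio of their levels per kilobase within a library, which does not depend on scaling. For *Fgfr3* over *Fgfr1* it was -4.31, -1.98 and -3.50 in Gli1+ replicates 1, 2 and 3 and -4.82, -3.02 and -4.28 in the Gli1- replicates. *Fgfr3* thus took a larger part beside *Fgfr1* in Gli1+ cells in 3 of 3 pairs, by 0.51, 1.05 and 0.78 on the log2 scale, with a mean of 0.78 and a standard error of 0.15 over pairs. The spread between replicates exceeded that difference, and the populations overlapped (2-sided exact permutation test, p = 0.5, adjusted to 0.75 over the 3 balances computed). Within pairs the exact sign-flip test gave p = 0.25, the smallest that 3 pairs allow.

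*Fgfr2* over *Fgfr1* did not have 1 direction, with differences of 0.60, 0.13 and -0.14 in pairs 1, 2 and 3 (exact permutation test, p = 0.9, adjusted p = 0.9). *Fgfr2* over *Fgfr3* was 1.25, 0.78 and 1.13 in Gli1+ and 1.17, 1.69 and 2.05 in Gli1- replicates 1, 2 and 3. It was lower in Gli1+ cells in pairs 2 and 3, by 0.91 and 0.92, and nearly level in pair 1 (exact permutation test, p = 0.2, adjusted p = 0.6). In each of the 6 libraries *Fgfr2* exceeded *Fgfr3* and *Fgfr1* exceeded both.

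**Figure D4:**
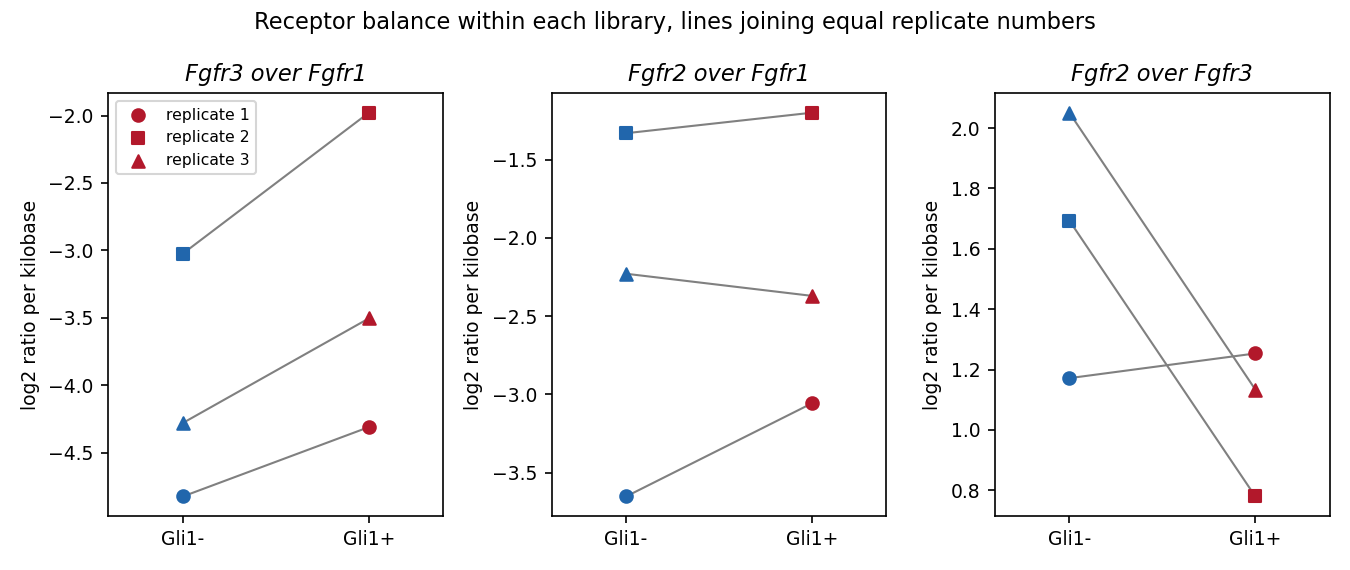
Log2 ratio of the levels per kilobase of 2 receptors within each library, in Gli1- (blue) and Gli1+ (red) cells, with lines joining equal replicate numbers. The lines rise in all 3 pairs for *Fgfr3* over *Fgfr1*, and have no common direction in the other panels.

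Among the ligands, *Fgf18*, which acts on chondrocyte FGFR3, was at 23.1, 20.3 and 14.2 CPM in Gli1+ and 27.8, 43.8 and 23.2 CPM in Gli1- replicates 1, 2 and 3. The populations did not overlap, but only narrowly, since Gli1+ replicate 1 lay just under Gli1- replicate 3. The log2FC was -0.72 (standard error 0.43, unadjusted p = 0.135, edgeR's quasi-likelihood test), and it was lower in 3 of 3 pairs. Without Gli1- replicate 2, its highest library, the log2FC was -0.45. *Fgf2*, a ligand with broad receptor binding, varied more between libraries than between populations, at 132, 13.3 and 58.4 CPM in Gli1+ and 69.5, 42.6 and 133 CPM in Gli1- cells. The log2FC, -0.27 with a standard error of 0.78, became 0.20 without Gli1+ replicate 2 and 0.27 without Gli1- replicate 3, but -1.21 without Gli1+ replicate 1. Pair 1 was the only pair in which it was higher in Gli1+ cells.

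The Sprouty genes encode inhibitors of RAS-ERK signalling that are themselves induced by it. *Spry2*, the most abundant, was at 171, 230 and 227 CPM in Gli1+ and 357, 305 and 378 CPM in Gli1- replicates 1, 2 and 3, with no overlap. Its log2FC was -0.73 (standard error 0.39, unadjusted p = 0.0969, edgeR's quasi-likelihood test) and, when single libraries were omitted, ranged from -0.84 to -0.62, the narrowest range of the 10 genes. *Spry1* was scarce, at 3.55, 7.0 and 4.36 CPM in Gli1+ and 10.9, 9.95 and 8.36 CPM in Gli1- cells, and did not overlap either. The fitted log2FC was -0.97 (standard error 0.51). *Spry4* went the other way, at 47.0, 25.6 and 69.4 CPM in Gli1+ and 52.0, 17.2 and 41.5 CPM in Gli1- cells. The populations overlapped, and its log2FC of 0.36 (standard error 0.55) turned to -0.034 without Gli1+ replicate 3 and -0.019 without Gli1- replicate 2. Per kilobase, *Spry2* was at 100 ± 15.9, *Spry4* at 10.3 ± 4.77 and *Spry1* at 1.71 ± 0.622 CPM per kb in Gli1+ cells (SD, n = 3), in the same order as in Gli1- cells, at 166 ± 18.1, 8.04 ± 3.89 and 3.35 ± 0.436.

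Promoter windows are shown for *Spry1*, *Spry2* and *Fgf18*, the genes without overlap for which a window was given. They reach from 250 bases before to 50 bases after the annotated start and come from RefSeq on GRCm38.p6, where 8 of the 10 genes matched by symbol, all but *Fgfr1* and *Spry4*. Capitals mark the core CCGGAA of an ETS site, the motif class through which ERK signalling reaches many of its targets, searched on both strands. The *Spry1* window lies at chr3:37639697-37639996 (plus strand), that of *Spry2* at chr14:105896770-105897069 (minus strand) and that of *Fgf18* at chr11:33147351-33147650 (minus strand).
Spry1: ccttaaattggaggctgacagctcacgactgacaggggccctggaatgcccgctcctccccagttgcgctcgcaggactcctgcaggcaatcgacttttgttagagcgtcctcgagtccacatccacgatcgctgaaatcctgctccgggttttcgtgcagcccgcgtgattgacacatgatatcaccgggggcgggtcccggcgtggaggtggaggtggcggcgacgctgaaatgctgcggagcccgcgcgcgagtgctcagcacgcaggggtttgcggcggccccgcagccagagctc
Spry2: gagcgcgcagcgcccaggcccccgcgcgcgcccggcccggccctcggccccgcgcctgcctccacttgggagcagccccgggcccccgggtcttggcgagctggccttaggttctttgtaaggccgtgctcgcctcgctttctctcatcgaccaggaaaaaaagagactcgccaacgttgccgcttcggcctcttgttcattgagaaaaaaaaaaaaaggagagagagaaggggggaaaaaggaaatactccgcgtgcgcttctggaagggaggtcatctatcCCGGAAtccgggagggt
Fgf18: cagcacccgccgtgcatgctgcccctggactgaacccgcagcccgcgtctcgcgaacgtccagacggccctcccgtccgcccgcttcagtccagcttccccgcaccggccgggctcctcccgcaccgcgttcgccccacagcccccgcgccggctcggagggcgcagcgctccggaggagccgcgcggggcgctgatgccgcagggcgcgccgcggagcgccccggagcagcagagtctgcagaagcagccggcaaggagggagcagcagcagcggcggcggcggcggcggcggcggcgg
The core was found once in *Spry2*, beginning 34 bases into the transcript, and not in the other 2 windows. Over all 9 windows of the 8 matched genes, 3 held it (*Fgfr4*, *Fgfrl1* and *Spry2*), against 14.9% of 32851 windows of 300 bases. A GLI site, GACCACCCA on either strand, was found in 0 of the 9 windows, against 0.253% of all. A match in these letters is a description of the window only.

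The other genes of the pathway were taken from 6 lists of 79 genes, of which 59 were tested. edgeR called 0 of these 59 genes, and 0 with the block. DESeq2 with the block called 2 higher (against 0.777% of all genes) and 2 lower (against 2.11%). The median log2FC was -0.14, with 33 genes below and 26 above 0. In 7 of the 59 tested genes all Gli1+ libraries lay below all Gli1- libraries, against 4.45% of all genes, and in 2 above, against 4.04%.

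Of 16 other secreted ligands, 4 passed the filter, 0 were called and 3 of these 4 had a negative log2FC. The most abundant, *Fgf7*, was at 1.82 ± 1.19 CPM per kb in Gli1+ and 1.09 ± 1.05 in Gli1- cells (SD, n = 3), and *Fgf1* at 0.502 ± 0.220 and 0.811 ± 0.163. These are below the 16.2 ± 3.85 and 26.6 ± 9.10 CPM per kb of *Fgf18* and the 10.02 ± 8.85 and 12.1 ± 6.87 of *Fgf2*. The 12 ligands that did not pass had at most 42 counts in any library. None of the 4 intracellular FGF homologous factors, which are not secreted, passed.

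The 20 genes of co-receptors and ligand-binding proteins, which hold FGFs at the cell surface or in the matrix, had 17 tested members with a median log2FC of 0.060, 9 above and 8 below 0. *Sdc4*, a cell surface heparan sulfate proteoglycan, was the most abundant, at 454 ± 135 CPM per kb in Gli1+ and 554 ± 305 in Gli1- cells (SD, n = 3). Of the 17 tested, 2 were higher without overlap, against 4.04% of all genes, and 0 lower, against 4.45%. *Gpc1*, a glypican and 1 of these 2, was at 295, 533 and 643 CPM in Gli1+ and 290, 269 and 258 CPM in Gli1- replicates 1, 2 and 3. Its log2FC was 0.85 (standard error 0.45). *Hspg2*, which encodes the matrix proteoglycan perlecan, was higher in 3 of 3 pairs, at 2383, 334 and 1309 CPM in Gli1+ and 665, 152 and 680 CPM in Gli1- cells. Its libraries overlapped, and DESeq2 with the block called it higher (log2FC 1.30, adjusted p = 0.00818, against 7.31e-05 to 1.0 over the alternatives). *Gpc6*, a glypican named here after its values were seen, was at 29.6, 82.2 and 30.6 CPM in Gli1+ and 62.1, 240 and 82.6 CPM in Gli1- cells, and the same test called it lower (log2FC -1.36, adjusted p = 0.00217, against 8.39e-09 to 1.0).

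Of the 20 adaptors and RAS-ERK transducers, all were tested, 0 were called by any of these fits, and the median log2FC was -0.22. In 3 of the 20, *Grb2* and *Stat3* among them, the Gli1+ libraries lay below the Gli1- libraries without overlap, against 4.45% of all genes. In 0 they lay above, against 4.04%. *Grb2*, the adaptor that couples receptors to RAS, was at 63.6, 104 and 106 CPM in Gli1+ and 156, 157 and 124 CPM in Gli1- replicates 1, 2 and 3, a log2FC of -0.67 with a standard error of 0.39. *Shc1*, another adaptor, had a log2FC of -0.31 (standard error 0.45), and *Mapk3*, which encodes the kinase ERK1, one of -0.96 (standard error 0.73), with overlapping populations in both.

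Among 10 other feedback inhibitors, 9 were tested and 0 called, with a median log2FC of -0.50. The most abundant were *Dusp5* and *Dusp6*, which encode ERK phosphatases, and *Spred1*, and their populations overlapped, with log2FC values of 0.28, 0.13 and 0.024 and standard errors of 0.44, 0.45 and 0.40. *Dusp4* (log2FC -1.04, standard error 0.50) and *Spred2* (log2FC -0.59, standard error 0.39), named after their values were seen, were the 2 tested genes without overlap, both lower. That was 2 of 9, against 4.45% of all genes lower without overlap and 4.04% higher.

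Of 9 target genes of FGF and ERK signalling, 9 were tested, with a median log2FC of -0.58, and edgeR called 0. *Cdkn1a*, *Epha2* and *Phlda1*, the most abundant per kilobase, had log2FC values of 0.059, -0.58 and -0.70 with standard errors of 0.58, 0.50 and 0.39, and of these only *Phlda1* did not overlap. *Etv5*, an ETS factor induced by FGF signalling and named here after its values were seen, was at 26.3, 17.8 and 22.7 CPM in Gli1+ and 58.1, 50.4 and 45.4 CPM in Gli1- replicates 1, 2 and 3. All Gli1+ libraries were below all Gli1- libraries, with a log2FC of -1.20 (standard error 0.37, unadjusted p = 0.0121, adjusted p = 0.9999, edgeR's quasi-likelihood test). DESeq2 with the block called *Etv5* lower (adjusted p = 0.0168, with alternatives giving 0.000246 to 1.0). *Ccnd1*, which encodes cyclin D1, went the other way, at 181, 60.2 and 99.2 CPM in Gli1+ and 67.3, 20.6 and 36.2 CPM in Gli1- replicates 1, 2 and 3. It was higher in 3 of 3 pairs although the populations overlapped, and its log2FC was 1.46 (standard error 0.59, unadjusted p = 0.0381, edgeR's quasi-likelihood test). The DESeq2 fit with the block called it higher (adjusted p = 0.000288, with alternatives giving 2.25e-07 to 1.0). *Etv4*, a close relative of *Etv5*, had a log2FC of 0.64 (standard error 0.55) in the other direction, with overlapping populations.

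**Figure D5:**
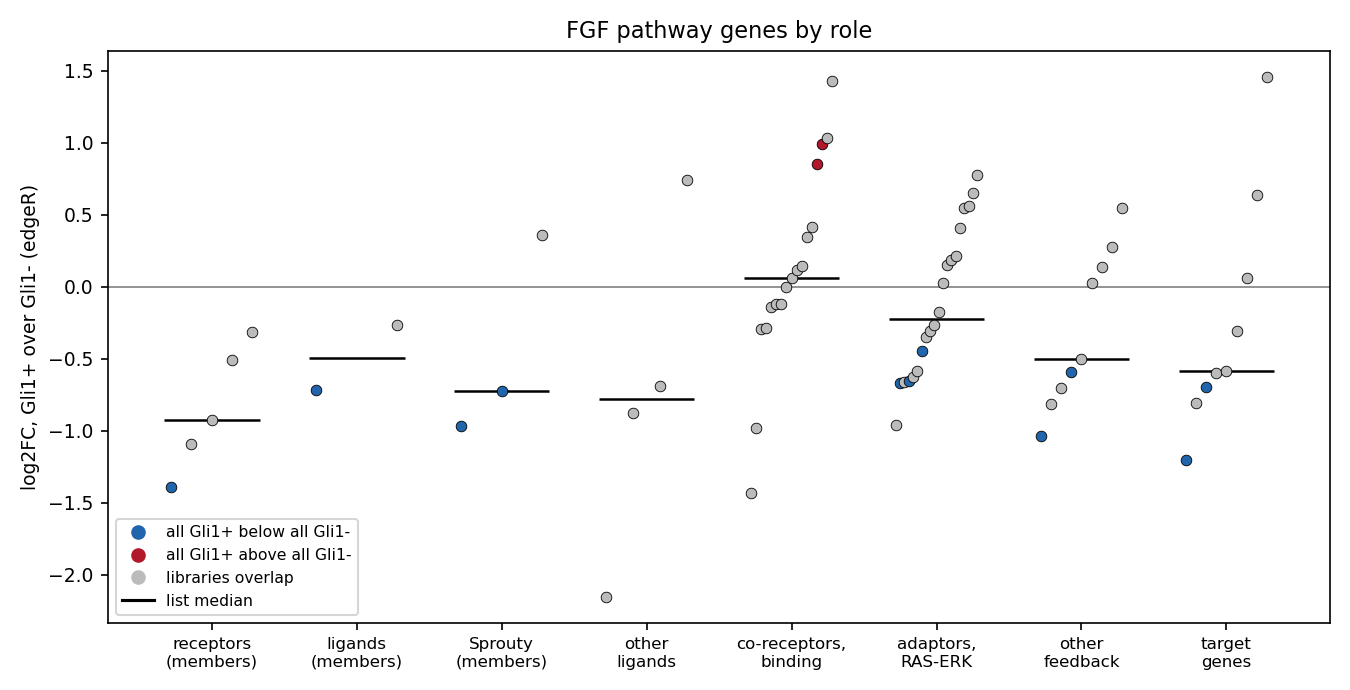
Fitted log2FC (edgeR, Gli1+ over Gli1-) of the 10 genes and of the 59 other pathway genes tested, by role, with black lines for list medians. Blue points are genes whose Gli1+ libraries all lay below the Gli1- libraries (4 of the 10 genes and 7 of the 59, against 4.45% of all genes), and red points those that lay above (0 and 2, against 4.04%).

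Markers of other cells moved with the populations in part, and their part in the FGF results was not tested. All 10 fibroblast and perichondrium markers had a negative log2FC, against 49.9% of all genes, with a median of -1.27, and DESeq2 with the block called 3 of them lower, against 2.11%. Their sum was 1670 to 3950 CPM in Gli1+ and 2230 to 9710 CPM in Gli1- libraries, and 1 marker was at 0 counts in Gli1+ replicate 1. *Pdgfra*, a fibroblast receptor named after its values were seen, was at 85.4, 82.0 and 43.1 CPM in Gli1+ and 206, 355 and 264 CPM in Gli1- replicates 1, 2 and 3. It was the only 1 of the 10 markers without overlap, against 4.45% of all genes lower without overlap. Of the 10 chondrocyte markers, DESeq2 with the block called 2 lower, against 2.11% of all genes, and 0 higher, against 0.777%. The median log2FC of the chondrocyte markers was -0.065, with 6 below and 4 above 0. Endothelial markers summed to 1.16 to 2.52 CPM in Gli1+ and 3.02 to 12.3 CPM in Gli1- libraries, with 4 of 5 at 0 counts in Gli1+ replicate 1.

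Leukocyte markers summed to 24.8 to 125 CPM and 48.3 to 1350 CPM, the highest in Gli1- replicate 1, and 5 of 8 were at 0 counts in Gli1+ replicate 1. Erythroid markers summed to at most 5.04 and 19.4 CPM and skeletal muscle markers to at most 36.5 and 30.2 CPM in Gli1+ and Gli1- libraries. The 5 hypertrophic markers summed to 3220 to 5410 CPM in Gli1+ and 647 to 2440 CPM in Gli1- libraries, through *Mmp13*. By contrast, *Col10a1*, with overlapping populations, had a log2FC of -2.46 (edgeR, standard error 1.13). That value ran from -3.76 without Gli1+ replicate 2 to -0.53 without Gli1- replicate 2. The log2 differences of *Col10a1* within pairs 1, 2 and 3 were -2.22, -2.64 and -1.54. DESeq2 with the block called it lower (log2FC -2.15, adjusted p = 6.28e-07), while edgeR with the block did not (adjusted p = 0.307).

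The genes whose levels followed the receptors most closely were found by Pearson's correlation of log2 CPM over the 6 libraries, among 8450 other genes with a mean of at least 10 CPM. For *Fgfr1* these were *Sh2d5* (r = 0.986), *Sbno2* (r = 0.978) and *Bmp2* (r = 0.973). For *Fgfr2* they were *Wsb1* (r = 0.995), *Ddx5* (r = 0.994) and *Rin2* (r = 0.992), and for *Fgfr3* *Btg1* (r = 0.995) and *Irf1* (r = 0.993) were among them. *Irf1* ran from 1.32 CPM in Gli1+ replicate 1 to 193 CPM in Gli1+ replicate 2, the libraries with the lowest and the highest *Fgfr3*. These coefficients describe 6 libraries that share preparation and pairs, and the highest of so many are high by selection.

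Some of these genes share exonic bases with a neighbour. Reads from genes on opposite strands cannot be told apart there without knowledge of strand, and reads from genes on the same strand cannot be told apart with it. *Fgf2* shares 640 of its 6782 exonic bases with *Nudt6* on the other strand (at most 20 counts in a library). *Fgfr3* shares 998 of 7158 with *G630022F23Rik* (at most 11 counts) and *Spry1* 710 of 2906 with *Gm42922* (at most 2 counts). *Fgfr1* shares 164 of 9875 with *Gm16159* on the other strand (at most 97 counts). *Fgfr2* shares 314 of 10328 with *Ctbp2* on the same strand (at most 1741 counts).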

How the data were processed

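RNA from sorted Gli1+ and Gli1- cells was sequenced (6 libraries, 3 per population). The authors deposited whole-number counts of reads per gene, without normalization or pooling. Per the submitters' processing notes, HISAT2 2.0.5 and featureCounts 1.5.0-p3 were used on mm10; the strand setting is not given in the sources used here. The table lists coordinates and lengths, which were used here for levels per kilobase. The methods call the 3 libraries of each population biological replicates, without saying which mice or how many went into each.

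Genes were filtered with filterByExpr (minimum count of 10), scaled by TMM and tested with edgeR 4.0.16 (quasi-likelihood test, R 4.3.3), with Benjamini-Hochberg adjustment over all 14801 genes and calls where |log2FC| was above 1 with an adjusted p below 0.05, the study's thresholds. Log2 CPM used a prior count of 2. The standard errors given for edgeR were derived from its test, as the absolute log2FC divided by the square root of the F statistic. DESeq2 1.42.0 and limma-voom (limma 3.58.1) were alternatives. The scripts were tested on simulated data. Receptor ratios were compared by exact permutation tests. Same-numbered libraries deviated together from their population means (r = 0.223, 0.72 and 0.471 across genes for numbers 1, 2 and 3), although Gli1+ replicate 1 correlated more with Gli1- replicate 3 (r = 0.274) than with its own number, and Gli1+ replicate 3 had r = 0.107 with Gli1- replicate 1. As each same-number r was above 0.1 and, per the paper, both populations came from the same mice, equal numbers were treated as pairs. That a number stands for particular mice is not stated, and the unblocked fit stayed the main one.

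The members, lists and tests were chosen with earlier results of these data known. The text names the 10 members, of each pathway list the up to 3 tested genes of highest level per kilobase and any gene called, the 3 genes most correlated with each of *Fgfr1*, *Fgfr2* and *Fgfr3*, *Gli1*, and, where said, genes chosen after their values were seen. *Stat3*, *Etv4*, *Ccnd1*, *Mmp13* and *Col10a1* were also chosen after their values were seen. The 6 pathway lists cover other ligands, intracellular factors, co-receptors, transducers, feedback inhibitors and targets, and 7 marker lists cover chondrocytes, hypertrophic cells, fibroblasts, leukocytes, endothelial, erythroid and muscle cells. Some genes that these rules name are not reported here.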

Additional observations from a re-analysis of the deposited data

How the results depend on the processing

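Of 140 log2FC values of the 10 genes under 14 alternatives, 132 kept their direction and stayed without a call, 2 passed the threshold and 6 changed sign. The 2 were *Fgfr1* and *Fgfr2* in DESeq2 with the replicate block, in which 2 of the 10 genes, 4 of the other pathway genes and 428 of all genes were called. DESeq2 without the block called 30 genes and edgeR without a filter on low counts 267, and each of these called 0 of the 10 genes and 0 of the other pathway genes. DESeq2 with the block and without both libraries of replicate 1 called 3 of the 10 genes and 781 of all 15331 genes tested there. The replicate block in edgeR changed no call. The changes of sign were those of *Fgfr3* (0.077) and *Fgfr4* (0.060) without Gli1+ replicate 1, *Fgf2* without Gli1+ replicate 2 (0.20) or Gli1- replicate 3 (0.27), and *Spry4* without Gli1+ replicate 3 (-0.034) or Gli1- replicate 2 (-0.019). With single libraries omitted, *Fgfr3* ranged from -1.07 to 0.077, *Fgfr4* from -1.04 to 0.060, *Fgf2* from -1.21 to 0.27 and *Spry4* from -0.034 to 0.68. The other 6 genes kept a negative log2FC under all 14. With single libraries omitted, *Fgfr2* ranged from -1.62 (without Gli1+ replicate 2) to -0.74 (without Gli1+ replicate 1), *Fgfrl1* from -1.39 (without Gli1+ replicate 2) to -0.50 (without Gli1- replicate 2) and *Fgf18* from -0.90 to -0.45 (without Gli1- replicate 2). The cause of these changes was not tested.

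With each library left out in turn, the difference in *Fgfr3* over *Fgfr1* lay between 0.14 and 1.30, that in *Fgfr2* over *Fgfr3* between -0.82 and -0.38, and that in *Fgfr2* over *Fgfr1* between -0.43 and 0.73. The last reversed to -0.31 when Gli1+ replicate 2 was omitted and to -0.43 when Gli1- replicate 1 was. Taking the mean of the differences within pairs, as a replicate block, leaves the balances as they are (0.78, 0.20 and -0.58 for *Fgfr3* over *Fgfr1*, *Fgfr2* over *Fgfr1* and *Fgfr2* over *Fgfr3*). The number of genes lower without overlap, 4 of 10, lay between 4 and 7 with a library left out, the 7 being without Gli1+ replicate 2, where 14.9% of all genes were lower without overlap. Across the scalings the median log2FC of all genes lay between -0.010 and 0.030. Depth limits *Fgfr4* and *Spry1* most, with at most 33 and 210 counts in a library.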
